A study of Mus musculus with 4 samples.

Results

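Regulatory T (Treg) cells that held RNA for interleukin 10 or for the chemokines Ccl3 and Ccl4 were picked out of 4 single-cell libraries of sorted CD4+ Foxp3GFP+ cells. A cell was counted when it had at least 500 detected genes, at most 10% mitochondrial UMIs (unique molecular identifiers, 1 per captured RNA molecule), at least 1 Foxp3 UMI and at least 2 UMIs summed over Ccl3, Ccl4 and Il10. Cells with 8 or more UMIs summed over 9 genes of dividing cells (Ccnb1, Ccnb2, Cdc20, Cenpf, Ube2c, Tpx2, Birc5, Top2a and Mki67) were left out. The rule was met by 370 cells, which were 2.87% of the 12877 Foxp3 cells below that limit and 2.69% of all 13738 Foxp3 cells. The 12507 remaining Foxp3 cells below the limit are called the other Foxp3 cells. The cells were thus chosen by their counts of the 3 genes, of Foxp3 and of the 9 genes of dividing cells, and the values of these genes are given as a description, with no test.

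The libraries came from the liver and the spleen of C57BL/6 mice in which Foxp3 is tagged with GFP, at 7 weeks and at 12 days of age, with 1 library for each age and tissue. The 12-day mice are labelled neonatal and the 7-week mice are labelled aged. For the 12-day mice the series text gives the genotype Foxp3GFP-Cre Rosa26loxP-Stop-loxP-YFP, and it gives none beyond the Foxp3GFP tag for the 7-week mice. The number of mice behind a library is stated nowhere in the labels, and no group had a second library. Values of single libraries are given in the order 7-week liver, 7-week spleen, neonatal liver and neonatal spleen.

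Treg cells restrain other immune cells by several routes, and secretion of IL-10, a cytokine that dampens macrophages, dendritic cells and effector T cells, is one of them. CCL3 and CCL4 are small chemokines that attract other leukocytes, and T cells release them soon after their antigen receptor has been engaged. Irf8, named with the 3 genes for these cells, encodes a transcription factor best known from dendritic cells, macrophages and B cells.

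The 4 libraries held 2608 to 8055 barcodes, and 2424 to 6178 of them passed the filters on genes and mitochondrial RNA. The 370 cells held 2636376 UMIs in all, of which the neonatal liver gave by far the most. They were deeper than the other Foxp3 cells, with a median of 4802, 4836, 6270.5 and 7368.5 UMIs per cell against 2887, 3116, 4560.5 and 4796 in the other Foxp3 cells. All 5 T cell markers (Cd3e, Cd3d, Cd3g, Trac and Cd4) were present in every library, with UMIs of that list in 100% of the cells. Of the 5 Treg markers Foxp3 was required by the rule, and the other 4 (Il2ra, Ikzf2, Ctla4 and Tnfrsf18) were also present in every library. Irf8 was not detected in the 15 cells of 7-week spleen, so the label did not hold there for that gene.

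Markers of other lineages stood far below the T cell markers in these cells. Macrophage markers, however, were higher than in the other Foxp3 cells in every library except neonatal spleen. Neutrophil and monocyte markers stood at 0 in all 4 libraries, and 1 mast cell and basophil UMI was found. The summed level of 12 macrophage markers was 26.5, 189, 16.1 and 14.2 counts per 1000000 UMIs (CPM), against 1.75, 12.4, 12.0 and 27.2 CPM in the other Foxp3 cells, with Csf1r the only marker above 0 in 7-week liver and Lyz2, C1qb and Cd68 in 7-week spleen, where 1 cell held 9 of the 13 UMIs. Adgre1, Vsig4, Marco, Cd5l and Ms4a7 stood at 0 in all 370 cells. The 6 B cell markers summed to 79.6, 14.5, 75.5 and 44.8 CPM, against 31.4, 26.6, 60.2 and 39.7 CPM in the other Foxp3 cells. Pax5 stood at 0 in all 4 libraries. The 7 dendritic cell markers lay between 0 and 45.1 CPM, against 4.82 to 39.3 CPM, with Xcr1 and Clec9a at 0. NK cell markers were found in neonatal liver alone, with 7 UMIs in 2 cells, at 3.32 against 0.173 CPM. CD8 T cell markers were lower than in the other Foxp3 cells in every library. Erythroid and hepatocyte markers reached at most 11.8 and 5.70 CPM. In neonatal liver 1 cell held 64 of the 159 B cell marker UMIs and 1 cell held 38 of the 95 dendritic cell marker UMIs. In all, 49 of the 370 cells carried 2 or more UMIs over the markers of 9 other lineages, 16 were among the cells with the highest doublet scores, and 13 had a barcode that also occurred in another library. Cells with fewer than 2 such UMIs were 6 of 7, 12 of 15, 261 of 296 and 42 of 52. Among the other Foxp3 cells they were 1351 of 1407, 3621 of 3767, 3119 of 3346 and 3575 of 3987. Carriers were thus more frequent among the 370 cells in every library, at a higher depth per cell.

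These cells were most frequent in the neonatal liver. They numbered 7 of 1414 Foxp3 cells in 7-week liver (0.495%, exact binomial 95% interval 0.199 to 1.02%) and 15 of 3782 in 7-week spleen (0.397%, 0.222 to 0.653%). In neonatal liver they numbered 296 of 3642 (8.13%, 7.26 to 9.06%) and in neonatal spleen 52 of 4039 (1.29%, 0.963 to 1.68%). The neonatal liver thus gave 80.0% of all the cells, and its interval lay above those of the other 3 libraries. The intervals cover counting error only, and with 1 library per age and tissue the differences between libraries have no replicate check and no test.

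Since a threshold in UMIs is met more often by deep cells, each Foxp3 cell was also thinned to the same number of UMIs. At 2000 UMIs per cell the shares were 0.188%, 0.247%, 4.16% and 0.564%, with 352, 547, 327 and 315 shallower cells left out. At 1000 UMIs per cell they were 0.219%, 0.107%, 2.04% and 0.203%, where single cells hold few UMIs of any gene. The neonatal liver remained the highest library at both depths, with intervals of 3.51 to 4.9% and 1.60 to 2.57%. As a measure of free RNA, cells without Foxp3 that carried 2 or more Dapl1 UMIs and a Ccr7 UMI, both naive T cell genes, were searched for the 3 genes. None of 91 such cells held even 1 UMI of them, at medians of 3139, 3512, 4065 and 4725 UMIs per cell. A count of 0 of 91 allows a share of up to 3.3%, and the 38 such cells of neonatal liver alone allow up to 7.89%.

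**Figure D1:**
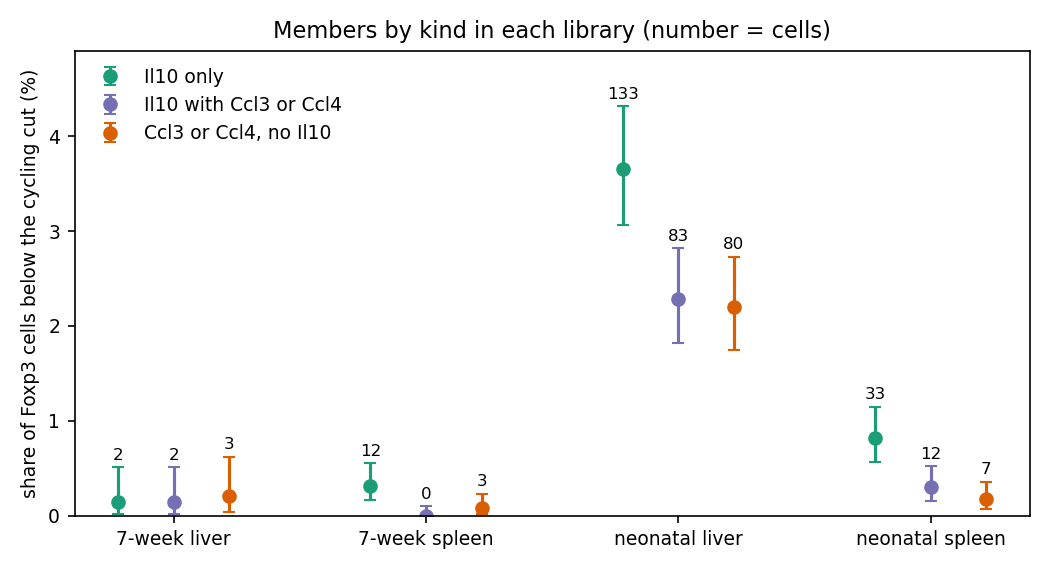
Share of Foxp3 cells below the limit on cycling genes (vertical axis, %) that held Il10 alone, Il10 with Ccl3 or Ccl4, or Ccl3 or Ccl4 without Il10, in each of the 4 libraries. Points are shares, bars are exact binomial 95% intervals and the numbers are cells. All 3 kinds were most frequent in neonatal liver, at 133, 83 and 80 cells.

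Il10 was the gene most of these cells had in common. Il10 (ENSMUSG00000016529; GRCm38 chromosome 1, 131019845 to 131024974) was found in 4 of 7, 12 of 15, 216 of 296 and 45 of 52 cells, at levels of 186, 392, 372 and 413 CPM. In the other Foxp3 cells, which could hold at most 1 UMI of the 3 genes, Il10 stood at 4.39, 2.02, 11.4 and 2.44 CPM. Its UMIs were spread over many cells: the most in 1 cell were 2, 3, 31 and 18, and the 10 highest cells of neonatal liver held 20.2% of that library's UMIs. In 7-week spleen a cell with 3 Il10 UMIs also held 9 macrophage marker UMIs.

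Ccl4 and Ccl3 were concentrated in few cells. The 2 genes lie close to each other on chromosome 11 (Ccl3, ENSMUSG00000000982, GRCm38 83647844 to 83649355, and Ccl4, ENSMUSG00000018930, 83662584 to 83664683), and their annotated transcripts share no identical stretch longer than 9 bases. Ccl4 was found in 4, 3, 118 and 16 cells at 769.9, 378, 1099 and 339.6 CPM, and its 10 highest cells held 69.2% of its UMIs in neonatal liver, with up to 293 UMIs in 1 cell. Ccl3 was found in 1, 0, 118 and 8 cells at 26.5, 0, 251 and 63.7 CPM, and its 10 highest cells held 45.7% of its UMIs in neonatal liver, with up to 69 in 1 cell. In neonatal liver 73 cells held both chemokines, 45 held Ccl3 without Ccl4 and 45 held Ccl4 without Ccl3. The 7-week cells with a chemokine held Ccl4 in every case, apart from the 1 cell of 7-week liver whose chemokine UMI was from Ccl3.

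The upstream sequences of Ccl3 and Irf8 are shown because these genes are part of the cells' label and the libraries read the 5′ ends of transcripts. Il10 and Ccl4, also part of the label, had no entry among the promoters used here. Each run is the 250 bases before the transcript start in the RefSeq table (GRCm38.p6), read 5′ to 3′ on the gene's own strand, for Ccl3 at chr11:83649379-83649628 on the minus strand and for Irf8 at chr8:120736108-120736357 on the plus strand. Capitals mark matches on either strand to the NFAT core GGAAA, the AP-1 motif TGANTCA or the TATA box TATAAA, and no 2 matches overlapped.
Ccl3: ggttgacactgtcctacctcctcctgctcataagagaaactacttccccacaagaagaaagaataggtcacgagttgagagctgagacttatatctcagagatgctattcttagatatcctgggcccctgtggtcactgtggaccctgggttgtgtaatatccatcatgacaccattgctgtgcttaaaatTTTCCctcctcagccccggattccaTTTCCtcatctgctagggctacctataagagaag
Irf8: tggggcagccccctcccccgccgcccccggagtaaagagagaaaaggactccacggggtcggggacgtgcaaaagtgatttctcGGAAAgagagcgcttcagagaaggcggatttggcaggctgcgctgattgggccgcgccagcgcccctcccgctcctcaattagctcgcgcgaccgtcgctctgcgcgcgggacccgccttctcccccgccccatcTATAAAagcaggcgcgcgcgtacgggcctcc
The Ccl3 run held 2 matches to the NFAT core, both on the reverse strand, beginning 59 and 34 bases before the start. The Irf8 run, the upstream one of 2 starts in the table, held 1 NFAT core match 166 bases and 1 TATA box match 31 bases before the start. Neither run held the AP-1 motif. The run of the other Irf8 start, not shown, held 2 NFAT core matches and neither of the other motifs. The runs of Nr4a1 and Ccr8, searched as well, held no match to any of the motifs. Over all 32851 promoters of the table, 55.6% held the NFAT core, 12.4% the TATA box and 6.75% the AP-1 motif in windows of this length. These matches describe letters and are no measure of binding.

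Cells with Il10 alone, with both kinds of gene and with a chemokine alone numbered 180, 97 and 93. By library, Il10-only cells were 2, 12, 133 and 33, cells with both were 2, 0, 83 and 12, and chemokine-only cells were 3, 3, 80 and 7. Among the cells of a library, Il10-only cells made up 80.0% in 7-week spleen (exact binomial 95% interval 51.9 to 95.7%), 44.9% in neonatal liver (39.2 to 50.8%) and 63.5% in neonatal spleen (49.0 to 76.4%). In 7-week liver all 3 kinds together were 7 cells. In neonatal liver the kinds had medians of 6665, 6884 and 5202 UMIs per cell. At least 2 Gzmb UMIs were found in 110 Il10-only cells, 69 cells with both and 58 chemokine-only cells.

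**Figure D2:**
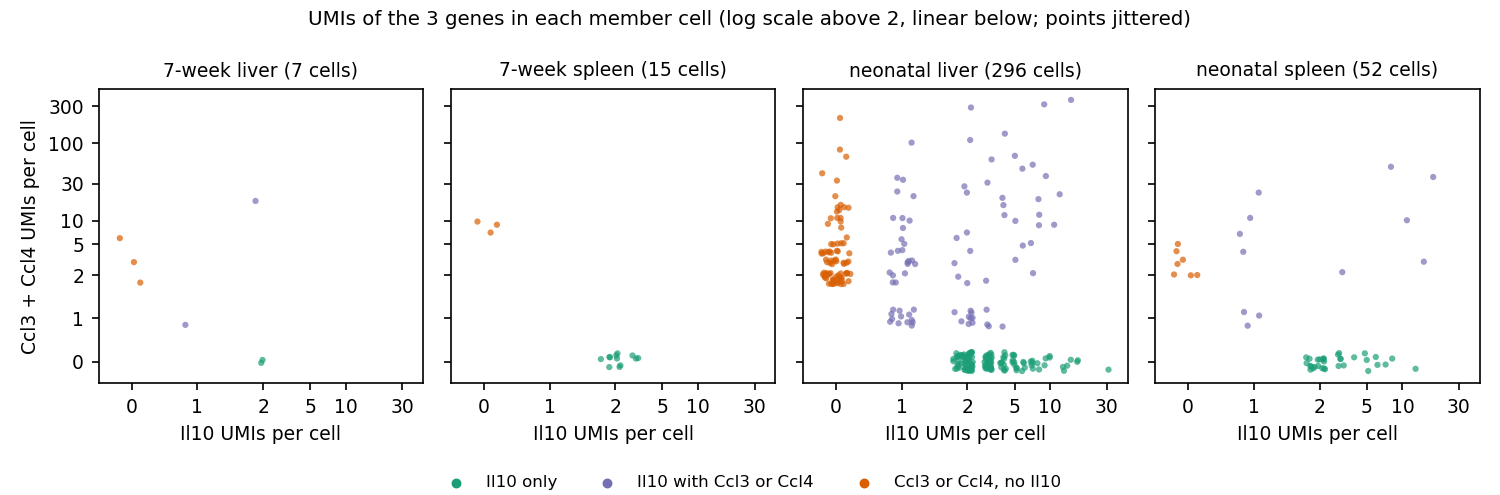
UMIs of Ccl3 plus Ccl4 (vertical axis) against UMIs of Il10 (horizontal axis) in each of the 370 cells, by library. Each point is a cell, jittered, on axes that are linear up to 2 and logarithmic above, coloured by kind. The highest sum of the 3 genes was 377 UMIs in a neonatal liver cell, against 20, 10 and 58 in 7-week liver, 7-week spleen and neonatal spleen.

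The cells just inside and outside the threshold were numerous. There were 139 cells with exactly 2 UMIs of the 3 genes, 72 with 3, 93 with 4 to 9 and 66 with 10 or more, while 418 Foxp3 cells outside the rule held exactly 1. In neonatal liver the Irf8 level was 88.9 CPM in cells with 0 UMIs of the 3 genes, 153 CPM with 1, 299 CPM with 2, 327 CPM with 3, 470.2 CPM with 4 to 9 and 1050.0 CPM with 10 or more. In neonatal spleen the same bins gave 36.8, 73.8, 120.5, 254, 166 and 537 CPM. Nr4a1 stood at 58.3 CPM in neonatal liver cells with 0 UMIs and at 781 CPM in those with 10 or more, while Ccr7 stood at 187 and 31.9 CPM. The cells with 1 UMI lay between the cells with 0 and those with 2 or more for Irf8 and Gzmb in both neonatal libraries.

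**Figure D3:**
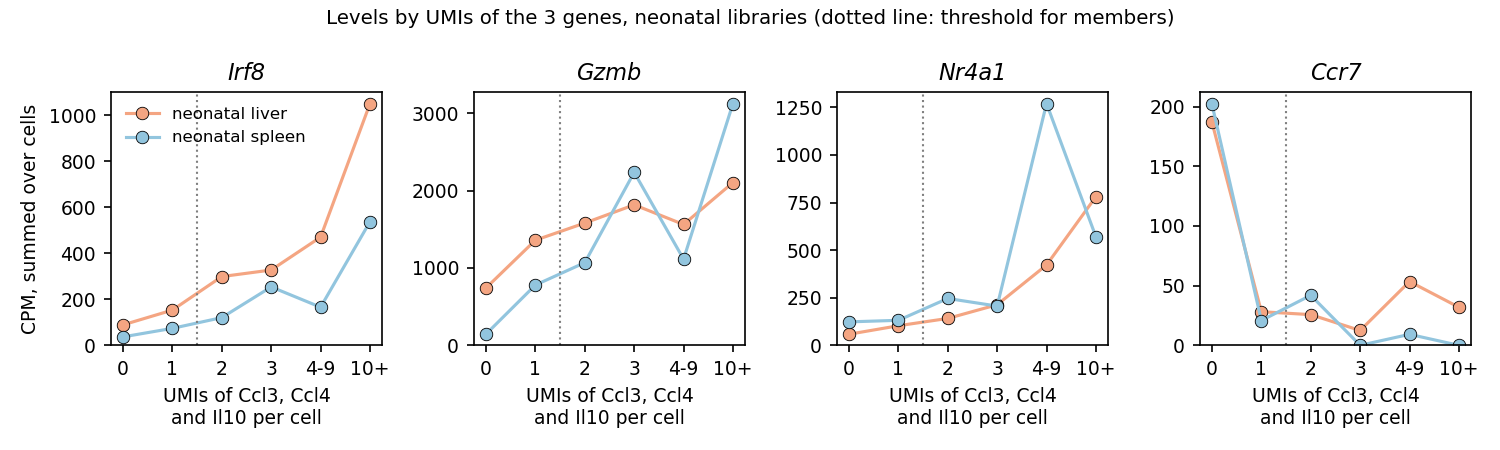
Levels of Irf8, Gzmb, Nr4a1 and Ccr7 (vertical axes, CPM summed over cells) against the number of UMIs of Ccl3, Ccl4 and Il10 per cell (horizontal axes), in neonatal liver and neonatal spleen. Each point is 1 sum over the cells of a bin and the dotted line is the threshold of 2 UMIs. In neonatal liver Irf8 stood at 88.9 CPM with 0 UMIs and at 1050.0 CPM with 10 or more.

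The Il10/Ccl3/Ccl4 cells were then compared with the other Foxp3 cells of the same library on all genes outside the selection rule. Raw UMIs were summed per library over each set of cells, the 13 genes of the rule were removed, and the 4 pairs of sums were tested with edgeR's quasi-likelihood test with library as a block. The unit is the library, and the 4 libraries also differ in age and tissue. The standard error (SE) of Irf8, 0.194, was close to those of Lag3, 0.176, and Il2ra, 0.184. Yet Irf8 went the other way in 1 library, while Lag3 was higher in all 4. The p-values therefore say little about how far a single gene varied between the libraries. Of 9470 genes tested, 241 were higher and 225 lower in the Il10/Ccl3/Ccl4 cells at a Benjamini-Hochberg adjusted p under 0.05, which is 2.54% and 2.38% of the genes (4.92% in either direction). The median log2 fold change over all genes was -0.06. Of the called genes, 127 were higher and 159 were lower in all 4 libraries. In 7-week liver 1 UMI of these cells stands for 26.5 CPM, so such agreement can rest there on 1 UMI or on none. Angptl2, Egr2 and Csf1 were higher there on 1 UMI, and Nsg2 and Lta were lower there on none. The counts fell when the cells of either neonatal library were left out, to 125 higher and 97 lower without neonatal liver and to 111 higher and 100 lower without neonatal spleen.

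The cells had higher levels of 12 of 19 genes that respond to T cell receptor signalling and 6 of 12 inhibitory receptors and ectoenzymes. Also higher were 5 of 9 cytotoxic granule genes and 9 of 17 Il10 regulators, with Irf8 of the label among the latter. Lower were 15 of 16 genes of resting, recirculating T cells. Among genes called, in one direction in all 4 libraries and at 50 CPM or more in the higher set, those with the highest fold changes were Angptl2, Ccr8, Nr4a1, Nkg7, Egr2, Mt1, Lag3, Csf1, Bcl2a1d, Tbx21, Rgs16 and Gzmb. Those with the lowest were Ly6c1, Nsg2, Klf2, Id3, Ccr7, Trat1, Gpr83, Pdlim1, Igfbp4, Tcf7, S1pr1 and Satb1. Of the other called genes named below, Nfkbiz, Tnfrsf25, Egr3, Bhlhe40, Klrg1, Gpr15, Pparg, Fosl2, Cxcr3, Spry1, Entpd1, Prdm1, Mcm3, Bach2, Rel, Tgfbr2 and Isg15 went the other way in 1 library, and Prf1, Fasl, Ifng, Myc, Gins2 and Cxcl2 in 2. The gene lists below were chosen with earlier results of these data known and are described by counts and medians only. Some genes are in more than 1 list, so the counts of different lists are not independent.

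Irf8 was higher in 3 of the 4 libraries. It stood at 372, 0, 508 and 212 CPM in the Il10/Ccl3/Ccl4 cells, against 38.6, 25.8, 96.2 and 37.5 CPM in the other Foxp3 cells. The 2 sets of cells were far apart in 3 libraries, while in 7-week spleen the 15 cells held no Irf8 UMI (exact Poisson 95% interval up to 53.6 CPM). The log2 fold change was 2.32 (SE 0.19, edgeR adjusted p = 1.7e-29). With DESeq2 in place of edgeR it was 1.87 and was not called (adjusted p = 0.37), while edgeR gave 2.43 when cells with RNA of other lineages were left out and 2.07 with depth-matched cells. An Irf8 UMI was found in 57.1%, 0%, 53.4% and 46.2% of these cells, against 5.19%, 5.84%, 20.0% and 9.56% of the other Foxp3 cells. The neonatal liver cell with the most Irf8 UMIs held 4.02% of them and no UMI of the other-lineage markers, whereas 1 cell of 7-week liver held 7 of that library's 14 Irf8 UMIs and 1 macrophage marker UMI.

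Of 17 tested regulators of Il10 transcription, 9 were higher and 0 lower, with a median log2 fold change of 1.08 against -0.06 over all genes. The 9 include Irf8, described above, which is itself part of the label of these cells. Maf, a transcription factor that binds the Il10 locus, stood at 478, 552, 229 and 231 CPM, against 196, 154, 148 and 78.7 CPM in the other Foxp3 cells (log2 fold change 1.12, SE 0.17, edgeR adjusted p = 1.4e-08). Batf, an AP-1 family factor of effector T cells, stood at 584, 421, 272 and 304 CPM, against 148, 145, 149 and 119 CPM. Tbx21, which encodes the type 1 helper factor T-bet, stood at 106, 29.0, 96.9 and 82.5 CPM, against 16.4, 7.20, 32.3 and 9.54 CPM (log2 fold change 2.14, SE 0.25, edgeR adjusted p = 7.0e-15). All 3 were higher in each library. Prdm1, Nfil3, Bhlhe40, Id2 and Rbpj were also called higher, with log2 fold changes of 1.08, 1.49, 1.44, 1.24 and 1.16. Irf4, Ahr, Gata3, Runx3, Ikzf1, Ikzf3, Stat3 and Hif1a were not called, at log2 fold changes between -0.49 for Ikzf1 and 0.69 for Irf4. Of 12 receptors and signalling genes for IL-10 and the 2 chemokines, 1 was called higher and 1 lower, the lower one being Tgfbr2, a TGF-beta receptor chain, at -0.74. Il10ra, the ligand-binding chain of the IL-10 receptor, had a log2 fold change of 0.38 (SE 0.20, edgeR adjusted p = 0.43).

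Genes that respond to T cell receptor signalling were often higher. Of 19 tested, 12 were called higher and 0 lower, with a median log2 fold change of 1.20. Nr4a1, which encodes the orphan receptor Nur77 and is induced within hours of receptor engagement, stood at 557, 1104, 366 and 549.5 CPM, against 60.7, 111, 63.3 and 123 CPM in the other Foxp3 cells (log2 fold change 2.57, SE 0.17, edgeR adjusted p = 1.8e-45). Its lowest value in the Il10/Ccl3/Ccl4 cells, 366 CPM, lay above its highest in the other Foxp3 cells, 123 CPM. The 7-week values lean on single cells, as the top cell held 11 of 21 Nr4a1 UMIs in 7-week liver and 34 of 76 in 7-week spleen. Its relatives Nr4a2 and Nr4a3 had log2 fold changes of 1.97 and 2.35, and the early growth response genes Egr1, Egr2 and Egr3 had 1.48, 2.47 and 2.30. Egr2, a factor that limits T cell activation, stood at 26.5, 116, 59.8 and 59.0 CPM, against 1.97, 32.4, 5.90 and 17.7 CPM. Egr1 went the other way in 7-week liver, at 26.5 CPM against 49.8 CPM. Rgs16, a regulator of G protein signalling, stood at 265, 261, 121 and 92 CPM, against 29.2, 32.2, 37.9 and 23.9 CPM. Spry1, Nfatc1, Gadd45b, Dusp5 and Myc were called higher as well, at 1.58, 1.24, 1.20, 0.86 and 0.75. Cd69, Cd5, Tox and Tnfaip3, also responsive to the receptor, lay between -0.22 and 0.23 and were not called.

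The NF-kB and AP-1 genes were more mixed, with 5 of 17 higher and 1 lower. Nfkbid, an atypical inhibitor of NF-kB, stood at 212, 116, 147 and 156 CPM, against 51.5, 56.2, 27.7 and 41.6 CPM in the other Foxp3 cells. Its log2 fold change was 1.96 (SE 0.19, edgeR adjusted p = 6.4e-22), and Nfkbiz, Rel, Traf1 and Fosl2 were higher at 1.26, 0.69, 0.60 and 2.08. Jun was lower at -1.10, with 212, 14.5, 38.9 and 42.5 CPM against 389.8, 230.1, 72.4 and 63.2 CPM. Fos and Fosb, which pair with Jun in AP-1, had log2 fold changes of -0.55 and -0.72 and were not called.

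Inhibitory receptors were often higher. Of 12 inhibitory receptors and ectoenzymes, 6 were called higher and 0 lower, with a median log2 fold change of 0.77. Lag3, which binds MHC class II, stood at 212, 1133, 329 and 198 CPM, against 36.2, 82.0, 100.1 and 47.3 CPM in the other Foxp3 cells (log2 fold change 2.32, SE 0.18, edgeR adjusted p = 4.1e-36). It was higher in each library and highest in 7-week spleen, where 86.7% of the cells held it. In 7-week liver the top cell held 5 of the 8 Lag3 UMIs. Tigit and Ctla4, both receptors that compete for ligands of costimulation, had log2 fold changes of 1.65 and 1.49, and both were higher in all 4 libraries. Pdcd1, which encodes PD-1, was called at 1.05 with 0, 290.4, 144 and 184 CPM against 31.6, 107, 75.3 and 73.9 CPM, so that the 7 cells of 7-week liver held none. Klrg1 and the ectoenzyme Entpd1 (CD39) were called at 0.96 and 1.06.

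Of 12 costimulatory and TNF receptors, 5 were higher and 1 was lower. Tnfrsf9 (4-1BB) stood at 769.9, 900.4, 546 and 620.3 CPM, against 75.2, 225, 271 and 286 CPM in the other Foxp3 cells (log2 fold change 1.49, SE 0.18, edgeR adjusted p = 1.8e-14). Tnfrsf4 (OX40), Tnfrsf1b, Tnfrsf18 (GITR) and Icos were called at 1.24, 1.17, 0.66 and 0.54, and Tnfrsf25 was lower at -1.47. Tnfrsf9 and Tnfrsf4 were higher in all 4 libraries.

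Cytotoxic granule genes were often higher, with 5 of 9 called and 0 lower. Gzmb, which encodes granzyme B, stood at 239, 72.6, 1739 and 1552 CPM, against 69.9, 22.2, 811 and 158 CPM in the other Foxp3 cells (log2 fold change 2.0, SE 0.22, edgeR adjusted p = 1.7e-16). It was higher within each library, and the other Foxp3 cells of neonatal liver held more of it than the Il10/Ccl3/Ccl4 cells of the 7-week libraries. The 7-week values rest on few UMIs. In 7-week liver the top cell held 8 of the 9 Gzmb UMIs, and the 5 of 7-week spleen lay in 3 cells. At least 2 Gzmb UMIs were found in 14.3%, 6.67%, 68.6% and 61.5% of the Il10/Ccl3/Ccl4 cells, against 4.55%, 1.33%, 33.1% and 8.0% of the other Foxp3 cells. Nkg7, a granule membrane protein, stood at 212, 784, 1486 and 818 CPM, against 42.5, 58.2, 437 and 114 CPM. Prf1 (perforin) and Fasl were called at 1.91 and 1.84, and both stood at 0 in the cells of both 7-week libraries. Ctsw, Ctsc, Serpinb9 and Serpinb6b lay between -0.08 and 0.28 and were not called.

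**Figure D4:**
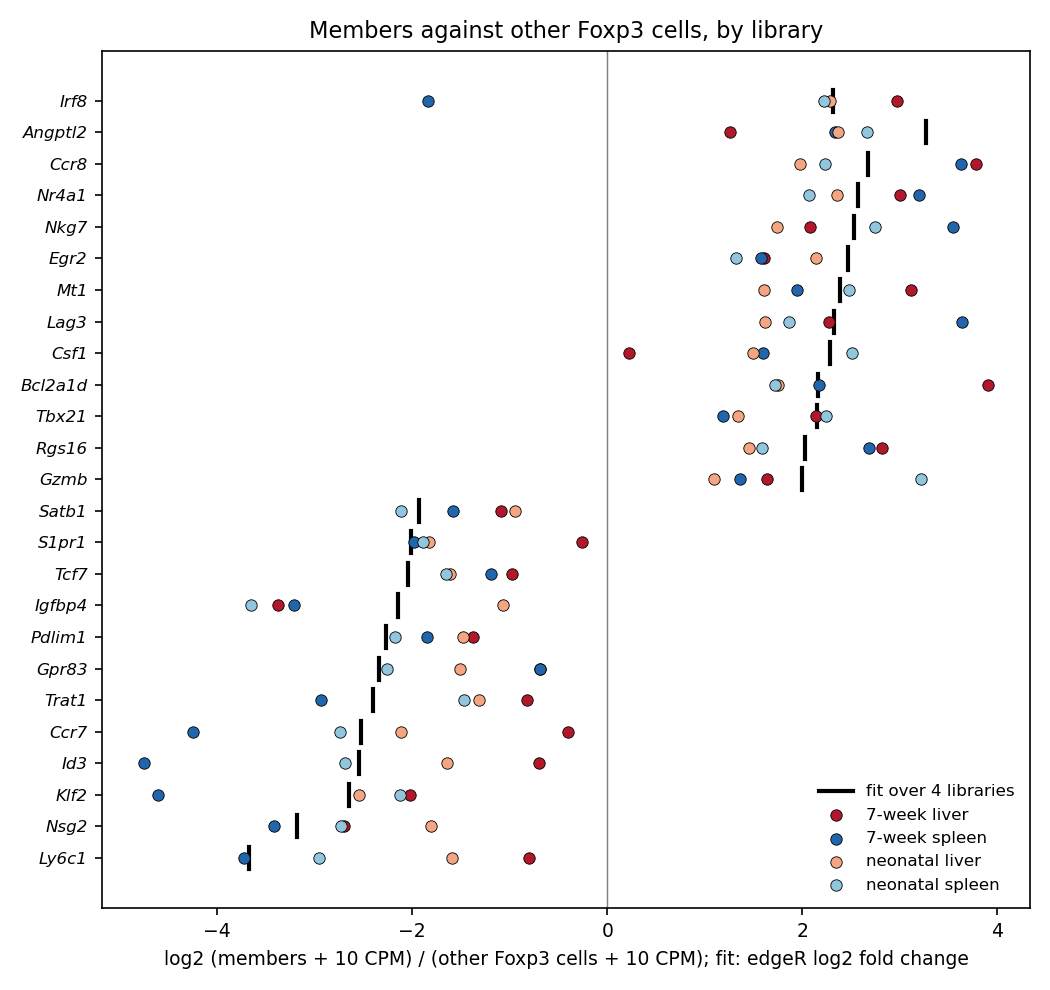
log2 ratio of the level in the Il10/Ccl3/Ccl4 cells (members) to that in the other Foxp3 cells (horizontal axis, 10 CPM added to both) for Irf8 and the 12 highest and 12 lowest called genes (vertical axis), by library. Points are libraries and black bars are the edgeR log2 fold changes over 4 libraries. All points of a gene lie on the same side of 0 except Irf8 in 7-week spleen, at -1.84.

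Among other secreted factors, Ccl5, another chemokine of T cells, stood at 876, 799, 4020.2 and 1762 CPM, against 254, 117, 1626 and 259 CPM in the other Foxp3 cells (log2 fold change 1.99, SE 0.20, edgeR adjusted p = 1.8e-20). It was higher in each library, but in 7-week liver 1 cell gave 63.6% of its 33 UMIs. In 7-week spleen 1 cell gave 65.5% of its UMIs and also held 9 macrophage UMIs, whose part in that value was not tested. Cxcl2, a chemokine for neutrophils, was called at 3.62, but all 11 UMIs of 7-week spleen came from 1 cell and the neonatal cells held none. Of 14 cytokines and mediators tested, 6 were higher and 2 lower. Csf1, the growth factor of macrophages, stood at 26.5, 87.1, 79.8 and 94.3 CPM, against 21.3, 22, 21.9 and 8.30 CPM (log2 fold change 2.28, SE 0.24, edgeR adjusted p = 6.4e-18). Ifng, Penk, Fgl2, Lgals3 and Tgfb1 were called higher at 1.46, 1.13, 1.04, 0.86 and 0.62. Lta (lymphotoxin) stood at 0, 0, 5.70 and 0 CPM, against 33.1, 62.9, 13.6 and 59.6 CPM, and was called lower, as was Tnfsf8, which stood at 0 in all 4 libraries of these cells. Areg, a repair factor of tissue Treg cells, had a log2 fold change of 1.16 and was not called (edgeR adjusted p = 0.16). Il2, Il4, Il5, Il13, Il17a and Il21 were too low to be tested. Angptl2, a secreted angiopoietin-like protein, led the called genes of one direction and 50 CPM or more. It stood at 26.5, 87.1, 123 and 87.3 CPM against 5.26, 9.22, 15.8 and 5.39 CPM (log2 fold change 3.27, SE 0.26, edgeR adjusted p = 9.9e-33).

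Genes of resting and recirculating T cells were lower almost without exception: 15 of 16 were called lower and 0 higher, with a median log2 fold change of -1.97. Klf2, the transcription factor that keeps T cells in circulation, stood at 239, 14.5, 81.2 and 137 CPM, against 1001, 587, 523 and 629.7 CPM in the other Foxp3 cells (log2 fold change -2.64, SE 0.21, edgeR adjusted p = 3.8e-32). S1pr1, the receptor T cells need to leave lymphoid tissue, was at -2.02. Ccr7, the receptor for entry into lymph nodes, stood at 186, 0, 31.3 and 21.2 CPM, against 248, 180.5, 169 and 198 CPM (log2 fold change -2.53). The 4 libraries showed one direction for both, with the smallest Ccr7 difference in 7-week liver. Id3, an inhibitor of E proteins that is high in resting Treg cells, stood at 53.1, 0, 19.0 and 49.5 CPM, against 92.3, 258, 80.7 and 375 CPM. Tcf7, which encodes the memory and naive cell factor TCF-1, stood at 53.1, 43.6, 12.3 and 28.3 CPM, against 114, 112, 58.4 and 111 CPM. Both were lower in each library. Lef1, Satb1, Bach2, Foxp1, Klf3, Dapl1, Igfbp4, Bcl2 and Ly6c1 were also lower, and Il7r was not called at -0.34. Reads of Ly6c1 can be shared with its near copy Ly6c2, and those of Bcl2a1d with Bcl2a1b, so the values of these genes are uncertain.

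Homing receptors went both ways, with 4 of 19 higher and 3 lower. Ccr8, a receptor of tissue Treg cells, stood at 451, 741, 559 and 436 CPM, against 23.7, 50.8, 135.1 and 84.9 CPM in the other Foxp3 cells (log2 fold change 2.68, SE 0.18, edgeR adjusted p = 1.8e-45). Its lowest value in the Il10/Ccl3/Ccl4 cells lay above its highest value in the other Foxp3 cells. In 7-week liver the top cell held 8 of the 17 Ccr8 UMIs. Cxcr6 and Cxcr3, receptors of type 1 and liver-homing T cells, were called higher at 1.88 and 0.84. Ccr6 and Itgb1 were lower at -2.64 and -1.58, with Ccr6 going the other way in 7-week liver (53.1 against 38.2 CPM), as was Gpr15, of which the 370 cells held 1 UMI. Of 15 tissue repair genes 5 were higher and 0 lower, among them Pparg, the factor of fat-tissue Treg cells, at 1.82. Klrg1, Nfil3 and Tnfrsf9, also among the 5, were already counted in other lists above. The alarmin receptor gene Il1rl1 had a log2 fold change of -1.33 and was not called (edgeR adjusted p = 0.075).

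The Treg identity genes were split, with 3 of 13 higher, 3 lower and a median of 0.22. Il2ra and Ikzf2 had log2 fold changes of -0.01 and 0.04. Ctla4, Tnfrsf18 and Itgb8 were higher, and Gpr83, Nrp1 and Ikzf4 were lower at -2.34, -1.21 and -0.82. Foxp3 itself, part of the rule, stood at 664, 609.9, 494 and 493 CPM, against 703, 636, 597 and 562 CPM in the other Foxp3 cells.

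Of genes outside the lists, Mt1, a metal-binding metallothionein, stood at 212, 58.1, 214 and 123 CPM, against 15.8, 7.65, 63.7 and 13.7 CPM in the other Foxp3 cells (log2 fold change 2.39, SE 0.21, edgeR adjusted p = 2.4e-27). Nsg2 stood at 0, 0, 6.65 and 11.8 CPM, against 54.8, 97.1, 48.3 and 134.8 CPM (log2 fold change -3.18, SE 0.31, edgeR adjusted p = 1.4e-21). Trat1, an adaptor of the T cell receptor complex, and Pdlim1 were lower at -2.40 and -2.27. None of 15 oxidative phosphorylation genes was called (median 0.01), and of 13 glycolysis genes only Slc16a3, a lactate transporter, was called, at 1.65, with 0 CPM in these cells of 7-week liver against 16 CPM in the other Foxp3 cells. Of 19 interferon response genes 3 were higher, of which Isg15 (0.59) turned to -0.10 when neonatal liver was left out. Of 16 S phase genes 4 were higher (Mcm6, Mcm3, Hells and Gins2, at 0.91, 0.73, 1.0 and 1.07), with a median of 0.70 that turned to -0.18 when cells above the limit on cycling genes were put back among the other Foxp3 cells. Of 16 survival and apoptosis genes 3 were higher, Bcl2a1d and Bcl2a1b among them, and Bcl2 was lower. Of 16 genes of actin, adhesion and activation only S100a11 was higher and only Itgb1 lower.

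Because the Il10/Ccl3/Ccl4 cells were deeper, the test was repeated with other Foxp3 cells matched to them on UMI total, which left 3401 genes that could be tested, with 112 higher and 74 lower. Of the 466 genes called before, 246 could be tested there, 245 kept their direction and 155 were called. Without cells that carried RNA of other lineages, 456 of the 466 could be tested, all of these in the same direction, and 382 were called.

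**Figure D5:**
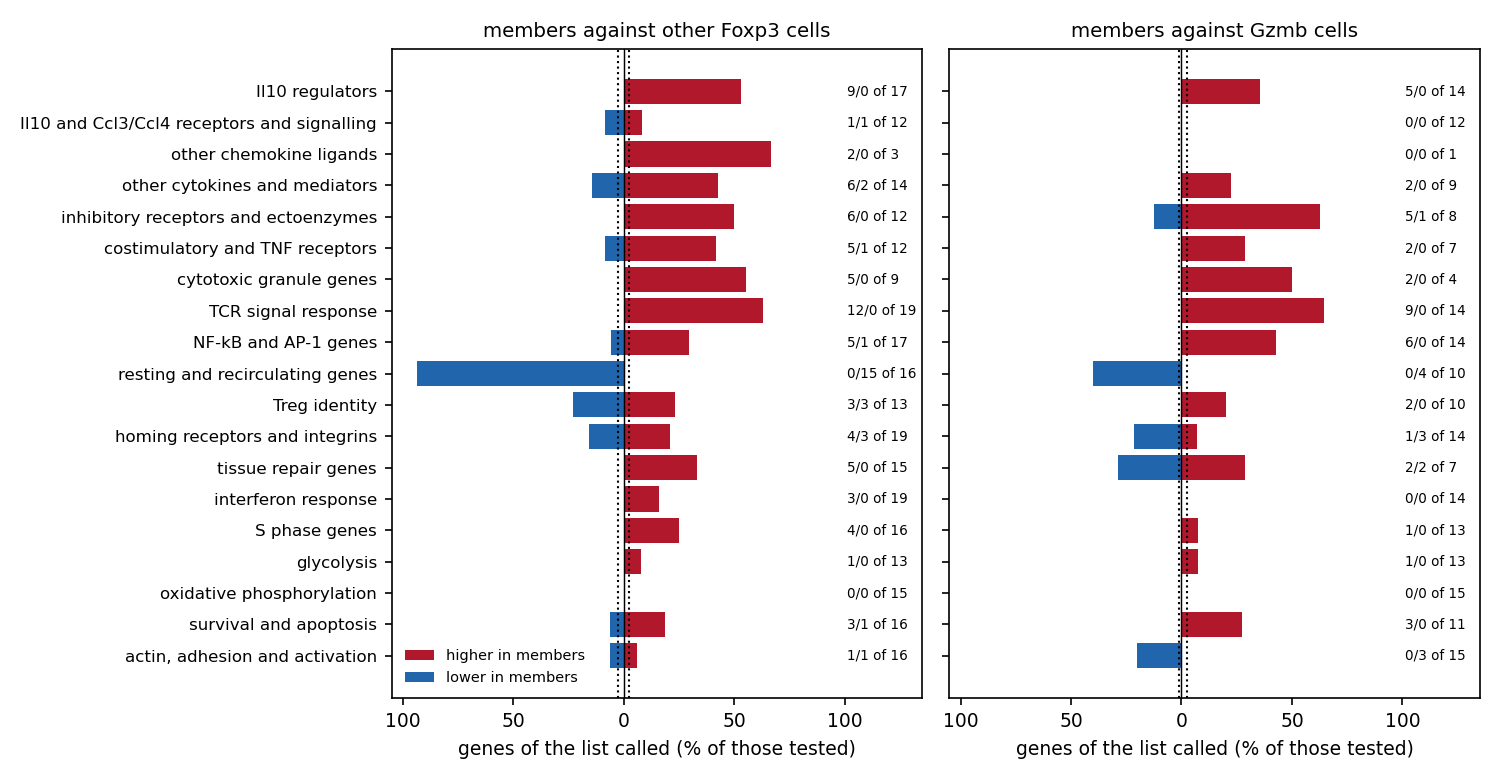
Share of the tested genes of each list (horizontal axis, %) called higher (right, red) or lower (left, blue) in the Il10/Ccl3/Ccl4 cells (members) against the other Foxp3 cells (left panel) and against other Foxp3 cells with Gzmb (right panel). Figures at the right give higher/lower of tested, and dotted lines mark the shares over all genes tested, 2.54% and 2.38% at left and 2.62% and 0.949% at right. Of the receptor response list 12 of 19 genes were higher at left and 9 of 14 at right, and of the resting list 15 of 16 and 4 of 10 were lower.

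Of the 370 Il10/Ccl3/Ccl4 cells, 237 carried 2 or more Gzmb UMIs. The cells were therefore also compared with the 64, 50, 1107 and 319 other Foxp3 cells that met this Gzmb threshold, with Gzmb removed from the test. Of 4427 genes, 116 were higher (2.62%) and 42 lower (0.949%), or 3.57% in either direction, by edgeR at an adjusted p under 0.05, and 77 and 30 of these did so in all 4 libraries. Without neonatal liver the counts were 37 higher and 6 lower, and without neonatal spleen 21 higher and 2 lower.

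Receptor response genes were again among the highest. Nr4a1 was at 44.2, 146, 48.9 and 56.3 CPM in the Gzmb cells, so that the Il10/Ccl3/Ccl4 cells were higher by a log2 fold change of 3.08 (SE 0.13, edgeR adjusted p = 2.8e-11). Egr1, Nfkbid, Bcl2a1d, Ccr8, Rgs16, Lag3, Irf8, Bcl2a1b and Rel followed at 2.18, 2.37, 2.20, 2.12, 1.99, 1.72, 1.70, 1.55 and 1.47. Irf8 stood at 105, 47.5, 136 and 75.9 CPM in the Gzmb cells and the Il10/Ccl3/Ccl4 cells were below them in 7-week spleen, where they held none. Its call was lost without neonatal liver (log2 fold change 1.33, edgeR adjusted p = 0.057) and with DESeq2 (1.25, adjusted p = 0.29). Ccr8 stood at 27.2, 83.1, 151 and 119 CPM in the Gzmb cells and Lag3 at 27.2, 75.2, 141 and 74.5 CPM, both below every library of the Il10/Ccl3/Ccl4 cells. Ctla4 was called at 1.16, with 558, 534, 536 and 498 CPM in the Gzmb cells. Of the lists, 9 of 14 receptor response genes and 6 of 14 NF-kB and AP-1 genes were higher. So were 5 of 8 inhibitory receptors and ectoenzymes and 5 of 14 Il10 regulators, with Irf8 among the latter. Ccl5 was not called, with a log2 fold change of 0.09, and neither was any of 14 interferon genes or 15 oxidative phosphorylation genes.

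Fewer genes were lower against the Gzmb cells. They included Klf2 at -1.17, with 643, 392, 177 and 231 CPM in the Gzmb cells, and the carboxypeptidase M gene Cpm at -1.18. Ms4a4b, Txnip and Tsc22d3 (-1.0, -0.93 and -0.79), the last of these a glucocorticoid-induced gene, were also lower, as were Crip1, Lztfl1 and Hist1h1e. Of 10 resting genes 4 were lower. Klrg1, higher against all other Foxp3 cells, was lower against the Gzmb cells, at 106, 392, 685 and 696 CPM against 412, 411, 952 and 1122 CPM (log2 fold change -0.57, SE 0.14, edgeR adjusted p = 0.026).

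Il10-only and chemokine-only cells differed in few genes. Of 765 genes tested with edgeR, 1 was higher (0.131%) and 1 lower (0.131%) in the Il10-only cells at an adjusted p under 0.05, and 42 had an unadjusted p under 0.05. DESeq2 called 0 in either direction. The chemokine-only sums of 7-week liver, 7-week spleen and neonatal spleen rest on 3, 3 and 7 cells.

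The gene lower in Il10-only cells was Ccl5, at 0, 962, 1901 and 1011 CPM, against 609, 202, 6685 and 7508 CPM in chemokine-only cells (log2 fold change -1.84, SE 0.36, edgeR adjusted p = 0.019). Chemokine-only cells were higher in 3 libraries, and in 7-week spleen they were lower. Ctla4 was higher in Il10-only cells, at 577, 1665, 1502 and 963 CPM, against 609, 742, 504 and 471 CPM (log2 fold change 1.16, SE 0.24, edgeR adjusted p = 0.023), with 7-week liver going the other way. Neither call held without either neonatal library, where the adjusted p for Ccl5 was 0.76 without neonatal liver and 0.99 without neonatal spleen, and for Ctla4 0.76 and 0.71. Within the 2 neonatal libraries alone, chosen after the data were seen, 12 genes were higher and 8 lower. Low-count genes were filtered anew there, so these counts cannot be set against those over the 765 genes. Nr4a1 had a log2 fold change of -0.33 over 4 libraries and of 1.13 over the neonatal libraries, where it was called, and Ccr8 had 0.76 and 1.16. Without 7-week spleen, where 3 chemokine-only cells gave Nr4a1 at 3645 CPM, Nr4a1 was at 0.86. Irf8 stood at 115, 0, 534 and 233 CPM in Il10-only cells, against 304, 0, 336 and 22.4 CPM in chemokine-only cells (log2 fold change 0.73, SE 0.27, edgeR adjusted p = 0.77). Gzmb was at 0.01 (SE 0.32).

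The Il10/Ccl3/Ccl4 cells of neonatal liver and neonatal spleen differed 2-fold in few genes, Irf8 among them. Genes were counted when their CPM ratio was 2-fold or more, provided that the higher of the 2 libraries had 30 or more UMIs and 100 CPM or more. Of 1469 genes that reached this level, 14 were higher (0.953%) and 1 lower (0.0681%) in neonatal liver. Irf8 stood at 508 against 212 CPM, a ratio of 2.39 (exact conditional 95% interval 1.93 to 3.0), and the other Foxp3 cells had a ratio of 2.56. The highest ratios were those of Snx20 (3.02), Mcl1 (2.86), Arf6 (2.77) and Phlda1 (2.43), of which the other Foxp3 cells showed 5.36, 2.25, 2.84 and 1.24. Izumo1r, which encodes folate receptor 4 of Treg cells, was 2.13-fold lower in neonatal liver (interval 1.92 to 2.37), against 1.63-fold lower in the other Foxp3 cells.

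Between the ages the 7-week sums rest on 7 and 15 cells, and no test was made. A gene was counted through the library where it was high, and 30 UMIs stand for a higher CPM in the shallower 7-week sums, so the numbers of higher and lower genes cannot be set against each other. In spleen, 20 of 949 genes were higher at 7 weeks (2.11%) and 129 lower (13.6%). Lag3 was higher at 7 weeks, at 1133 against 198 CPM, a ratio of 5.72 (interval 4.15 to 7.88), where the other Foxp3 cells had 1.73. Gzmb was lower at 7 weeks, at 72.6 against 1552 CPM, or 21.4-fold (interval 9.11 to 66.0), where the other Foxp3 cells had 7.10-fold. In liver, 11 of 887 genes were higher at 7 weeks (1.24%), led by Ms4a4b with a ratio of 5.94 (4.12 to 8.36), and 253 were lower (28.5%), where 37669 UMIs in all stood behind the 7-week sum. Between 7-week liver and 7-week spleen, 13 of 223 genes were higher (5.83%) and 30 lower (13.5%), led by Vim, a cytoskeletal gene, at a ratio of 10.4 (6.57 to 17.2).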

How the data were processed

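Single-cell 5′ libraries of sorted CD4+ Foxp3GFP+ Treg cells (10x Genomics kit, per the labels' protocols) were deposited as raw UMI counts per gene and barcode, with 32285 features. Per the file headers the authors made these counts with Cell Ranger 4.0.0, and per the submitters' processing notes on mm10. The annotation release and the strand setting are not given in the sources used here. Groups were taken from age and tissue labels. Cells were filtered as the report states, UMIs were summed per library (2 sums a comparison), scaled to counts per 1000000 UMIs (CPM), and tested with edgeR 4.0.16 (TMM, filterByExpr, quasi-likelihood, library block, Benjamini-Hochberg 0.05), which was tested on simulated data. SE is the log2 fold change over the root of F. DESeq2 1.42.0 was an alternative.

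Doublets were kept. Scrublet's automatic threshold (scanpy 1.11.5) marked no cell in 3 of 4 libraries and was not used. The highest scores at 0.8% per 1000 barcodes were left out as an alternative. Intervals are exact at 95% and cover counting error only, and a share of 0 cells was given a limit of 3 counts. The 19 lists and the cells themselves were chosen with earlier results of these data known. Genes were named by a rule: the 12 highest and 12 lowest called genes of the main comparison with one direction in all 4 libraries and 50 CPM, 8 and 8 in the others, 4 per list by p, and 5 and 5 between libraries. Genes named beside a list count were chosen after their values were seen. GENCODE vM21 on GRCm38 gave positions (99.6% of features matched), and 16 of 101 genes it placed overlap an exon on the opposite strand and 2 on the same strand. Mx1 and Aldoa, each a member of 1 list, were not analysed here. T cell receptor sequences were not analysed here. A few genes counted in the lists are not reported here by name.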

Additional observations from a re-analysis of the deposited data

Results flagged for a closer look

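For some genes 1 library lay far from the other 3 in the log2 ratio of the Il10/Ccl3/Ccl4 cells to the other Foxp3 cells (10 CPM added to both). Of 88 genes checked, 6 had such a library. Chance alone sets apart about 1 in 20 groups of 4 independent values. The genes share the same 4 libraries and many were named for agreeing in direction, so that rate need not hold here. The part of chance was not tested. Irf8 had -1.84 in 7-week spleen, where the 15 cells held no UMI of it, and 2.97, 2.29 and 2.23 in 7-week liver, neonatal liver and neonatal spleen. Pdcd1 had -2.06 in 7-week liver against 0.85 to 1.36 elsewhere, and Mcm3, a DNA replication gene, had -1.80 there against 0.67 to 0.83, both with 7 cells in that library. S1pr1 had -0.26 in 7-week liver against -1.99 to -1.83 elsewhere. Jun had -3.29 in 7-week spleen against -0.85 to -0.48, and Igfbp4 had -1.07 in neonatal liver against -3.65 to -3.21.

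Other genes differed in direction between ages or tissues, a difference that was not tested. Cxcl2 had a median of 2.33 in the 7-week libraries and lay at -0.02 and -0.01 in neonatal liver and neonatal spleen, with all of its 12 UMIs in 2 cells. Fasl, Gins2 and Cxcl10 had medians of -0.47, -0.64 and -1.02 in the 7-week libraries, where the 22 cells held 0, 0 and 1 UMI of them, so that a ratio below 0 shows little at this depth. Their ratios were above 0 in both neonatal libraries (Fasl 1.02 and 1.45, Gins2 0.66 and 0.87, Cxcl10 0.06 and 0.27). Lztfl1 had a median of -0.32 in liver, with 0.21 and 0.09 in the 2 spleens.

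Cells outside the rule also held the 3 genes. Cells without a Foxp3 UMI were counted below the limit on cycling genes. In 7-week liver 4 (0.418%) and in 7-week spleen 6 (0.275%) of such cells had 2 or more UMIs of the 3 genes. In neonatal liver 56 (3.90%) and in neonatal spleen 6 (0.326%) of such cells did. Among the Foxp3 cells above the limit on cycling genes, 34 of 515 in neonatal liver had 2 or more.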

How the results depend on the processing

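The 241 higher and 225 lower genes of the Il10/Ccl3/Ccl4 cells against the other Foxp3 cells became 96 and 77 with DESeq2, 112 and 74 with depth-matched cells, and 43 and 52 without the library block. Lower genes numbered 341 when cycling cells were put back among the other Foxp3 cells. With 1 library left out the counts ran between 111 and 277 higher and between 97 and 258 lower. Of the 466 calls, DESeq2 gave 464 the same direction and called 166, and the neonatal libraries alone gave 465 the same direction and called 421. Over all alternatives, named genes of this comparison kept their status as called or not called in 1425 values, lost the call in 98 and gained it in 20. A gene called in either fit turned in 1 value, Isg15, at -0.10 without neonatal liver (-0.10 to 0.82 with 1 library left out). Changes of direction in genes called in neither fit are counted among the 1425, and the causes were not tested.

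For the Il10-only against the chemokine-only cells, 1 higher and 1 lower gene became 0 and 0 at 3 or more UMIs of the 3 genes, with DESeq2, without the library block and without cells above the 99th percentile of UMIs. Without cells with RNA of other lineages the higher count was 0. Without the low-count filter the counts were 9 and 6, and in the neonatal libraries alone 12 and 8. The filter was applied anew for each choice of cells or libraries, so such counts are over different sets of tested genes. With 1 library left out they ran between 0 and 4 higher and between 0 and 8 lower, and Nr4a1 turned to 0.86 without 7-week spleen (-1.65 to 0.86 with 1 library left out) and to 1.13 in the neonatal libraries. Against the Gzmb cells, 116 higher and 42 lower genes became 44 and 8 with DESeq2, 212 and 67 in the neonatal libraries, and 12 and 0 without the block. Without the low-count filter 65 were lower, and with 1 library left out the counts ran between 21 and 144 higher and between 2 and 56 lower.

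The Il10 regulators had 0.64 with depth-matched cells and 0.78 to 1.37 with 1 library left out. The receptors and signalling genes had -0.067 to 0.17 with 1 library left out. The chemokine ligands had 0.78 at 2 or more Foxp3 UMIs, 0.73 at 3 or more UMIs of the 3 genes, 0.32 without the low-count filter and 0.93 to 2.27 with 1 library left out. The cytokines had 0.70 without the filter and 0.40 to 0.75 with 1 library left out, the granule genes 0.55 at 2 or more Foxp3 UMIs, and the receptor response genes 0.80 with depth-matched cells. The homing genes had -0.41 at 3 or more UMIs, -0.33 without the block, -0.24 without cells above the 99th percentile of UMIs, -0.27 without cells with RNA of other lineages and -0.35 to -0.15 with 1 library left out. The tissue repair genes had 0.43 at 3 or more UMIs, 0.47 without the block, 0.44 without cells with RNA of other lineages and 0.45 to 1.18 with 1 library left out. The S phase genes had -0.18 with cycling cells put back, and oxidative phosphorylation had -0.11 at 3 or more UMIs and 0.11 in the neonatal libraries.

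The share of the cells in 7-week liver was 0.188% at 2000 UMIs per cell and 2.12% at a threshold of 1 UMI. In 7-week spleen it was 0.107% at 1000 UMIs per cell, 1.27% at 1 UMI and 0.159% at 3 UMIs. In neonatal liver it was 4.16% and 2.04% at the 2 depths, 16.3% at 1 UMI, 5.33% at 3 UMIs, 7.12% of all Foxp3 cells and 9.2% of cells with 2 or more Foxp3 UMIs. In neonatal spleen it was 0.564% and 0.203% at the 2 depths, 2.85% at 1 UMI and 0.693% at 3 UMIs. Between libraries, without cells with RNA of other lineages, genes 2-fold higher numbered 6 for 7-week over neonatal liver, 9 for 7-week over neonatal spleen and 6 for 7-week liver over 7-week spleen, and those 2-fold lower numbered 13 in the last pair and 5 for neonatal liver over spleen. At 3 or more UMIs of the 3 genes, 4 were higher and 400 lower for 7-week over neonatal liver, 5 and 206 for 7-week over neonatal spleen, and 4 and 8 for 7-week liver over spleen, and 3 were lower for neonatal liver over spleen. The fits were paired by library, and the values without the library block above are those of the unpaired fit.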
